A study of Homo sapiens with 4 samples.

Results

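The small GTPases of the Ras branch were followed at the level of mRNA in LNCaP and PC3 cells, 2 lines from human prostate cancers, with and without atorvastatin (ATO). The 9 genes are HRAS, NRAS, RRAS, RRAS2, RAP1A, RAP1B, RALA, RALB and RHEB, out of 27224 genes with a usable probe, and they were found by taking every gene probe on the array that carries one of these names. This gave 13 probes, with 2 probes each for 4 genes (NRAS, RRAS2, RAP1B and RHEB) and 1 probe each for the other 5. LNCaP is an androgen-responsive line and PC3 an androgen-independent line. There were 4 groups of 1 array each, a control and an ATO group in either line. ATO cells received 10 µM for 24 h, the controls are labelled as untreated with no vehicle named, and all cells were grown in RPMI medium with serum. All arrays lay on 1 slide, so position on the slide and group cannot be told apart, and the differences within a line have no replicate check.

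Ras family proteins are molecular switches that are active when bound to GTP and inactive when bound to GDP. To work they must be anchored to membranes by a lipid, farnesyl or geranylgeranyl, which is joined to a cysteine near the end of the protein. Both lipids are made from mevalonate, the product of the enzyme that statins inhibit. HRAS, NRAS and RHEB are known to carry farnesyl, whereas RRAS, RAP1A, RAP1B, RALA and RALB are known to carry geranylgeranyl. The arrays measured mRNA, so they hold no reading of the lipid, of GTP loading or of protein.

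The probes that decide how the results can be read are shown first, each 5′ to 3′ as given in the array design, with coordinates on the hg18 build. HRAS has 1 probe in 10 copies on each array. It lies on chromosome 11 between 523600 and 523812, a span of 213 bases for 60 probe bases. NRAS has a pair of probes on chromosome 1, the brighter at 115052688 to 115052747 and the dimmer at 115051456 to 115051515. The brighter probe reads through in its first frame without a stop codon, and the capitals mark its last cysteine codon in that frame (bases 55 to 57), the residue known to be farnesylated. For the dimmer NRAS probe, the RRAS probe (chromosome 19, 54830545 to 54830604) and both RHEB probes (chromosome 7, 150795063 to 150795122 and 150794061 to 150794120), the first 30 bases are given.
HRAS: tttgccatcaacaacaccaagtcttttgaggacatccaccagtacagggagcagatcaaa
NRAS, brighter probe: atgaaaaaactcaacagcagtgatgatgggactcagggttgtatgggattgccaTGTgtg
NRAS, dimmer probe: atgaatgtctgagatacgtctgtgacttat
RRAS: tagctgccttcgcaccttgctgtgtgacct
RHEB, brighter probe: tatcttcaaggagaacgggcagtttgcttc
RHEB, dimmer probe: cttttgcagctaaaatttcacagggctatt

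The RRAS2 probes (chromosome 11, 14256042 to 14256101 and 14256055 to 14256114) share 47 bases of sequence with 1 difference, A42G, counted from the first base of the dimmer probe. They are therefore nearly the same measurement, made at 2 places on the array. The capitals in the stretches of 30 bases mark the base that differs.
RRAS2, dimmer probe: tgtatagcttcaggtActagaattaaaatt
RRAS2, brighter probe: tgtatagcttcaggtGctagaattaaaatt

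The coordinates of the brighter RHEB probe run in the opposite order to the strand of the gene. Over 17626 probes whose gene has a single strand in the RefSeq table of GRCh38.p14, 99.2% run with the gene and 0.834% (147 probes) against it. What RNA this RHEB probe reads was not tested, and both RHEB probes are reported. No probe of another gene (0 of 34114 searched) shared a run of 25 bases with a probe of the 9 genes on either strand.

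Values are processed spot intensities, and every fold change below is computed after each array was divided by its 75th percentile (497 units without and 533 with ATO in LNCaP, 588 without and 569 with ATO in PC3). Intensities of different probes are not comparable with each other. All 13 probes were well above background on all 4 arrays, and no gene spot was saturated. The scanner software's own error came to between 0.20 and 0.33 on the log2 scale for a difference of 2 arrays after ATO. It was between 0.20 and 0.22 for every probe but the dimmer RHEB one, almost whatever the intensity. It is the software's estimate for single spots and holds no spread between cultures, so a difference larger than it is not thereby shown to be repeatable. The line labels were checked with markers. KLK3 and FOLH1, prostate antigens, were not well above background on the PC3 arrays, and CAV1 and CD44 were not on the LNCaP arrays. TMPRSS2 was 17.5-fold lower in untreated PC3 than in untreated LNCaP, and VIM was 151-fold higher. After ATO, VIM was 1.98-fold higher in LNCaP, while in PC3 TMPRSS2 was 2.03-fold higher and CAV1 2.39-fold lower. The part of these shifts in the results below was not tested.

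**Figure D1:**
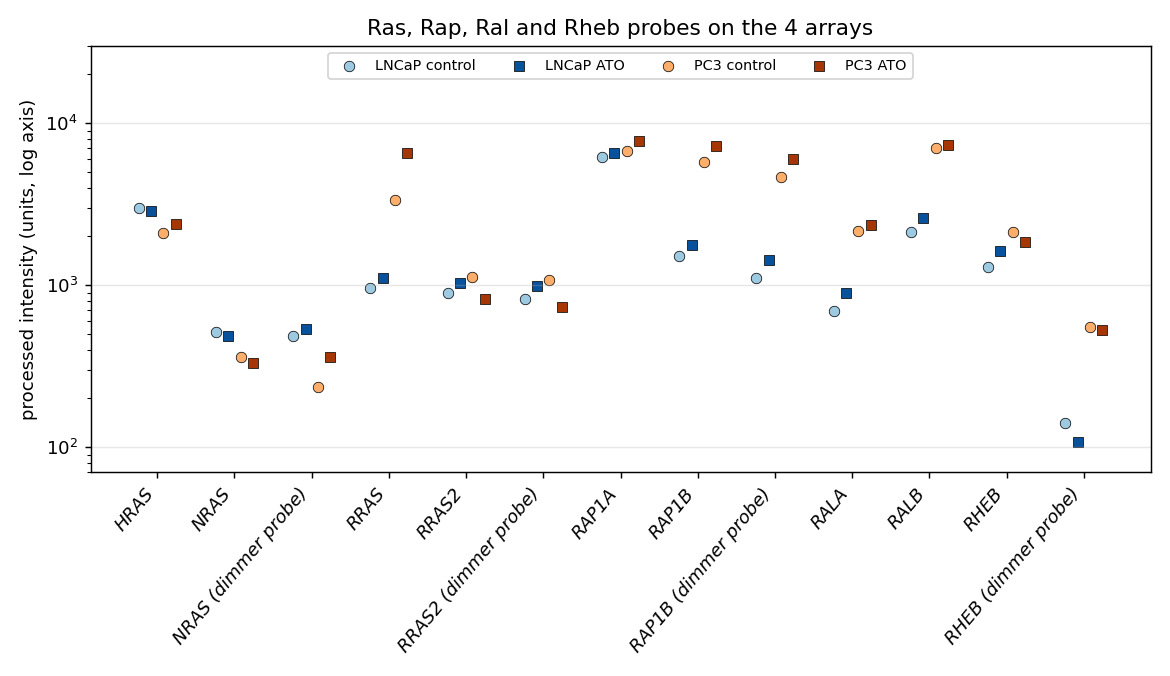
Processed intensity (log axis) of the 13 probes on the 4 arrays, with 1 point per probe and array (the mean of 10 spots for HRAS) and no error bar. RRAS, RAP1A, RAP1B, RALA, RALB and both RHEB probes are brighter on both PC3 arrays than on both LNCaP arrays. For RAP1A this did not hold after scaling. RRAS has its highest value, 6545 units, in PC3 ATO.

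After ATO, RRAS mRNA was 2.01-fold higher in PC3 cells and 1.09-fold higher in LNCaP cells. RRAS, a GTPase known for its role in integrin-dependent adhesion and in vessels, gave 955 units without and 1112 with ATO in LNCaP, and 3372 without and 6545 with ATO in PC3. The PC3 ATO array stood above the other 3, and both PC3 arrays stood above both LNCaP arrays. On the log2 scale the difference after ATO was 1.005 in PC3 (scanner error 0.20) and 0.12 in LNCaP (0.21). By the brightest probe of each gene, RRAS was the 1 gene of the 9 that reached 1.5-fold in PC3, where 18.5% of all 13815 genes with a value reached it in either direction and 8.2% were higher. In RNA from whole cultures, more cells with RRAS mRNA and more of it per cell cannot be told apart. Among the 12513 genes measured on both PC3 arrays, 98.2% had a lower log2 ratio than RRAS. In LNCaP none of the 9 (0) reached 1.5-fold, against 4.75% of 13739 genes. RRAS rests on 1 spot, at row 464 of 532, which had a bright local background on the LNCaP ATO array but not on either PC3 array. The RRAS ratio in PC3 was lowest with normexp background correction (0.72) and remained past 1.5-fold.

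**Figure D2:**
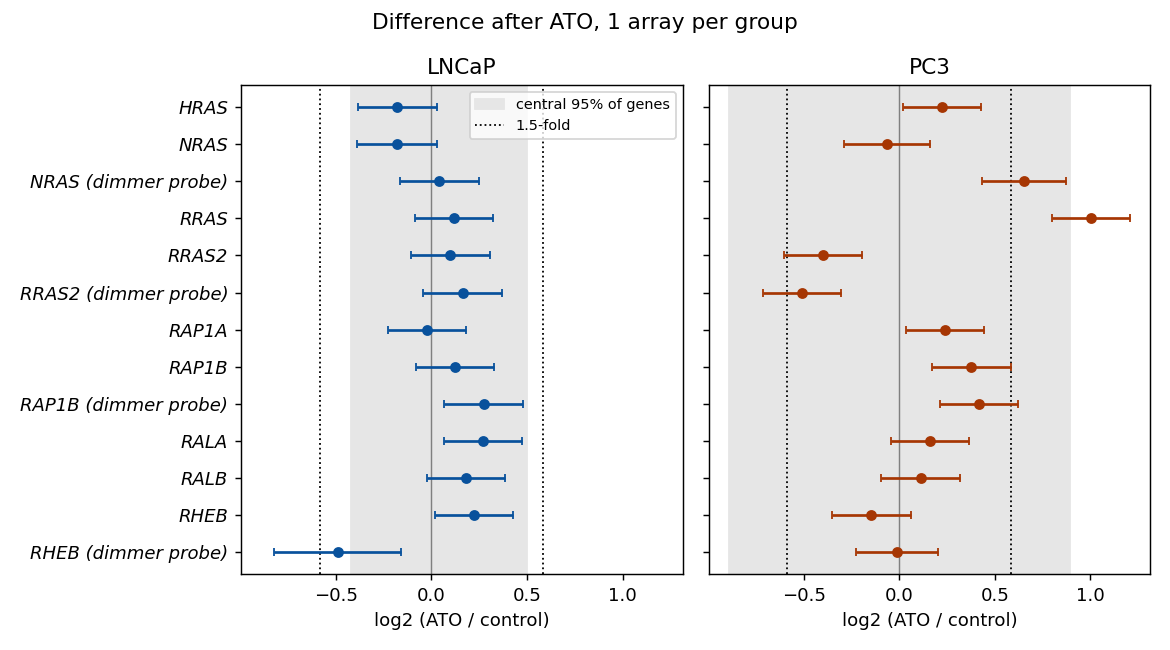
Log2 ratio of ATO over control for each probe in LNCaP (left) and PC3 (right). Bars are the scanner software's error on the ratio, grey bands hold the central 95% of genes measured on both arrays (-0.42 to 0.50 in LNCaP and -0.89 to 0.89 in PC3), and dotted lines mark 1.5-fold. RRAS in PC3 (1.005) lies outside its band, and the dimmer RHEB probe in LNCaP (-0.49) lies just outside its own.

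The closest relative of RRAS on the array, RRAS2 (also called TC21), was lower after ATO in PC3, not higher. RRAS2 read 895 units without and 1028 with ATO in LNCaP, and 1123 without and 824 with ATO in PC3 by the brighter probe. The dimmer probe read 825, 990.1, 1073 and 729 in the same order. By both probes the PC3 ATO array was the lowest of the 4, before and after scaling. The log2 difference after ATO was -0.40 in PC3 by the brighter probe and -0.51 by the dimmer one, each short of 1.5-fold but larger than the scanner error of 0.21. With the 50th percentile the brighter probe gave -0.20, which is not larger than that error. In LNCaP the ratios were 0.10 and 0.16, smaller than the scanner error.

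HRAS and NRAS, classical Ras proteins that pass signals from growth factor receptors to the MAPK cascade, were read with different precision. The 10 HRAS spots gave 3008 ± 140.4 units without and 2857 ± 229.8 with ATO in LNCaP, and 2110.1 ± 137 without and 2384 ± 143 with ATO in PC3 (SD over 10 spots of 1 array, which is a technical error only). After scaling, the LNCaP spots ran from 2.51 to 2.73 without ATO (median 2.59, log2 scale) and from 2.18 to 2.56 with it (median 2.42), and the PC3 spots from 1.74 to 2.00 without ATO (median 1.81) and from 1.90 to 2.19 with it (median 2.07). Control and ATO spots overlapped in each line. Set against the spot at the same position, however, all 10 ATO spots were lower than control in LNCaP (-0.40 to -0.05) and all 10 higher in PC3 (0.07 to 0.38), which describes single arrays, since the spots share 1 RNA sample. The spots of the control arrays did not overlap between lines, with LNCaP higher. Those of the ATO arrays overlapped only in the lowest LNCaP spot (2.179) and the highest PC3 spot (2.186). At matched positions every ATO spot was higher in LNCaP than in PC3, and the mean log2 difference of PC3 from LNCaP with ATO was -0.35. For HRAS, ATO and control differed by log2 -0.18 in LNCaP and 0.22 in PC3. Each difference was close to the scanner error of 0.20, but that error is for single spots and was not reduced for the 10 copies. The SD over the spots of an array was between 0.07 and 0.12 on the log2 scale.

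**Figure D3:**
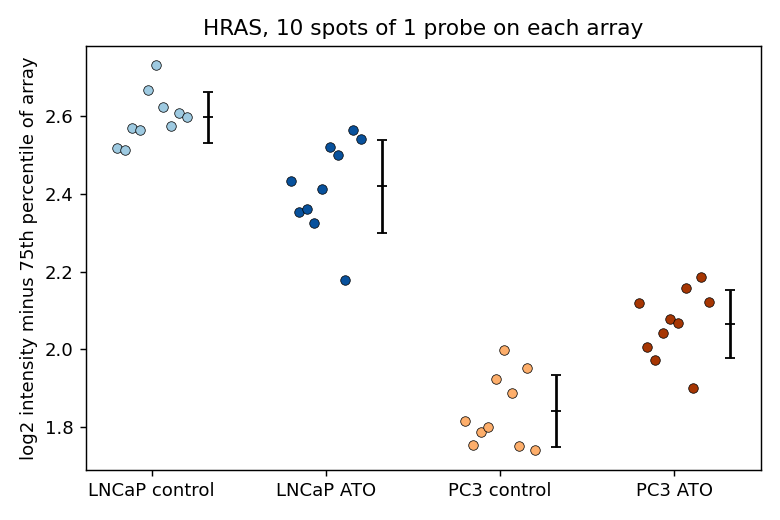
Scaled log2 intensity (log2 units above the array's 75th percentile) of the 10 HRAS spots on each array, with the mean and SD over spots to the right of the points. All LNCaP control spots (2.51 and above) lie over all PC3 control spots (2.00 and below), and control and ATO spots overlap within each line, though at matched positions all 10 are lower with ATO in LNCaP and higher in PC3.

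The NRAS probes disagreed after ATO in PC3. The brighter probe, over the end of the coding sequence, gave 514 units without and 486 with ATO in LNCaP, and 358 without and 332 with ATO in PC3. The dimmer probe gave 485, 535, 236 and 358 in the same order. Both probes were lower on the PC3 arrays than on the LNCaP arrays, but only the dimmer one was higher in PC3 ATO than in PC3 control. Its log2 ratio in PC3 was 0.65 (1.57-fold, scanner error 0.22), past 1.5-fold, against -0.06 by the brighter probe. The brighter probe lay at row 496 in a bright local background on the LNCaP ATO and PC3 control arrays, whereas the dimmer probe had none. The part of the background in this disagreement was not tested. In LNCaP the ratios were -0.18 and 0.04. With normexp background correction the ratio by the brighter probe changed sign in both lines, to 0.03 in LNCaP and 0.13 in PC3.

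RAP1A and RAP1B, GTPases of cell adhesion and of integrin activation, differed in how they were spread over the arrays. RAP1A gave 6171 units without and 6505 with ATO in LNCaP, and 6776 without and 7733 with ATO in PC3, with log2 ratios after ATO of -0.02 in LNCaP and 0.24 in PC3. Its spot had a bright local background on both PC3 arrays. RAP1B gave 1526, 1779.7, 5728 and 7199.6 units by the brighter probe and 1110.0, 1437, 4676 and 6034 by the dimmer one. RAP1A was at a like level on all arrays, while RAP1B was higher on both PC3 arrays by both probes. The RAP1B ratio after ATO was 0.38 and 0.42 in PC3 and 0.12 and 0.27 in LNCaP, short of 1.5-fold in each. The RAP1B probes overlap by 14 bases.

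The Ral GTPases, which act downstream of Ras in exocytosis and cell movement, stayed short of 1.5-fold after ATO. RALA gave 694 units without and 897 with ATO in LNCaP, and 2172 without and 2347 with ATO in PC3. RALB gave 2135, 2596, 7046 and 7362 units in the same order. The ratios after ATO were 0.27 for RALA and 0.18 for RALB in LNCaP, and 0.16 and 0.11 in PC3. Both genes were higher on both PC3 arrays, and within a line the control and ATO arrays differed far less than the lines did.

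RHEB, the activator of the kinase mTORC1, was the member whose probes disagreed most. The brighter probe, whose coordinates run against the gene, gave 1300.2 units without and 1624 with ATO in LNCaP, and 2118 without and 1852 with ATO in PC3. The dimmer probe, which runs with the gene, gave 142, 108, 551 and 529. The former put the lines close together, whereas the latter had both PC3 arrays well above both LNCaP arrays. After ATO the log2 ratios were 0.22 and -0.49 in LNCaP and -0.15 and -0.01 in PC3. The spot of the brighter probe had a bright local background on the PC3 ATO array.

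Over both lines, limma with cell line as a block gave no member an adjusted p under 0.05 for ATO (0 of 9, and 0% of 11902 genes tested, with 532 genes and 0 members at an unadjusted p under 0.05). The mean log2 difference was 0.56 ± 0.27 (SE) for RRAS with an adjusted p of 0.762, and members' adjusted p ranged from 0.762 to 0.971. The test had 1 residual degree of freedom, which holds how far the 2 lines differed in their ratios after ATO. For RRAS these ratios were 1.005 in PC3 and 0.12 in LNCaP. Over the 9 members the log2 ratios had a median of 0.12 in LNCaP and 0.16 in PC3, and over all genes measured on both arrays it was 0.01 in each line. In each line 6 members were above 0 and 3 below by the brightest probe. Of all genes measured on both arrays, 53.1% were above 0 in LNCaP and 51.3% in PC3. The dimmer probes changed the sign of NRAS in both lines and of RHEB in LNCaP. Members were also grouped by the lipid known to be attached, with the brightest probe of each. The 5 geranylgeranylated members ran from -0.02 to 0.27 in LNCaP and from 0.11 to 1.005 in PC3. The 3 farnesylated members ran from -0.18 to 0.22 in LNCaP and from -0.15 to 0.22 in PC3. Their dimmer probes fell outside these ranges for NRAS in PC3 (0.65) and for RHEB in LNCaP (-0.49). RRAS2, which can carry either lipid, was left out of this grouping, and no test was made of it.

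For every member except RRAS2 and RAP1A, the untreated lines differed by more (on the log2 scale, brightest probe) than ATO and control did in either line. Genes at large also differed more between the lines. The SD of the log2 difference over genes measured on both arrays was 1.25 there, against 0.24 after ATO in LNCaP and 0.44 in PC3. The share of all genes that meet the rule used for the members was not counted. In the untreated cells, RAP1B was 3.17-fold, RRAS 2.98-fold, RALB 2.79-fold and RALA 2.64-fold higher in PC3. These 4 members were all higher in PC3, and none (0) was 2-fold lower. With the 50th percentile, RALA (0.96) was short of 2-fold, and HRAS (-1.20) and NRAS (-1.21) were past 2-fold lower. Of all 15237 genes with a value, 39.6% differed at least 2-fold, 20.6% being higher in PC3 and 19% lower. HRAS and NRAS were lower in PC3, at log2 -0.76 each by the brightest probe (1.69-fold and 1.70-fold), and the dimmer NRAS probe gave -1.28 (2.43-fold). RAP1A (-0.11) and RRAS2 (0.08) differed by less than the scanner error of 0.20. RHEB was at 0.46 by its brighter probe and 1.71 (3.28-fold) by the dimmer one. This comparison shares its control arrays with the comparisons after ATO.

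**Figure D4:**
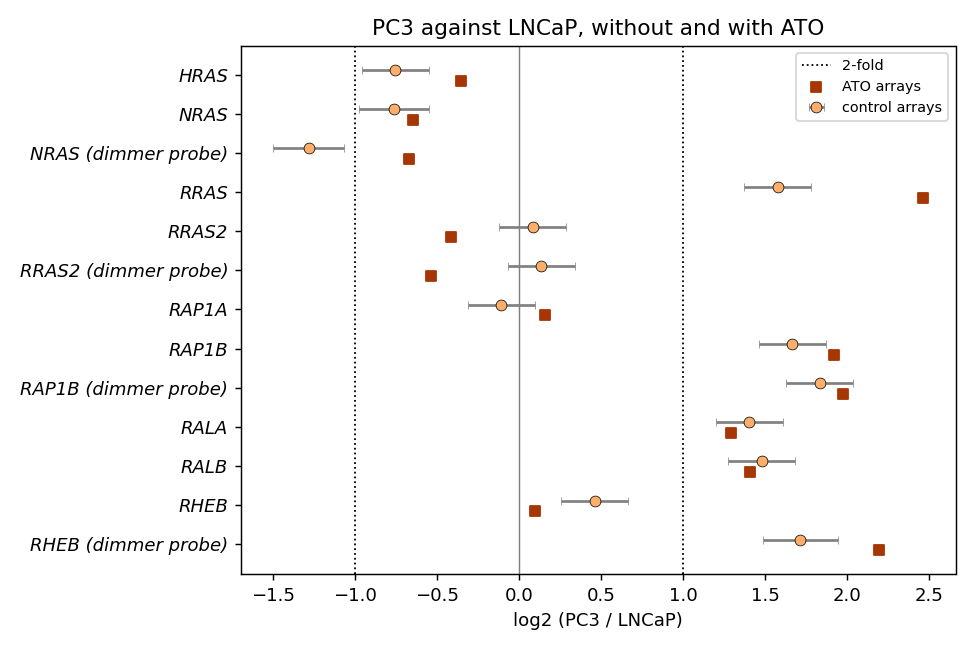
Log2 ratio of PC3 over LNCaP for each probe, on the control arrays (circles, with the scanner software's error) and on the ATO arrays (squares, no error drawn). Dotted lines mark 2-fold. RRAS moves from 1.58 to 2.46, RALA from 1.40 to 1.29, and the RHEB probes lie far apart.

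With the control and the ATO array of a line taken as its samples, limma gave 5 members an adjusted p under 0.05 between the lines, against 58.1% of 13733 genes tested. RRAS (log2 difference 2.02 ± 0.28 SE, adjusted p 0.0122), RAP1B (1.79 ± 0.15, 0.00489), RALB (1.44 ± 0.13, 0.00583) and RALA (1.35 ± 0.14, 0.00679) were higher in PC3, as were 25.6% of genes. NRAS was lower in PC3 (-0.70 ± 0.14, limma adjusted p 0.0248), as were 32.6% of genes. HRAS (-0.56, limma adjusted p 0.0702), RHEB (0.28, 0.239), RRAS2 (-0.17, 0.4998) and RAP1A (0.02, 0.908) did not pass. Treatment was a block in this fit. The mean difference after ATO is thus removed, and the spread used here is how far that difference varied between the lines. A share of 5 in 9 is close to that of all genes. With the median over probes, RHEB passed too (1.12, limma adjusted p 0.0105). HRAS passed with the 50th percentile (-0.89, 0.0153), with normexp (-0.52, 0.0250) and with an intensity trend (-0.56, 0.0312), and NRAS did not pass without a filter on dim probes (0.167).

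By the profile over the 4 arrays, centred on each gene's mean, the nearest of 11015 genes to RRAS were HSPA5 (distance 0.15 on the log2 scale), RDH10 (0.17) and PKIB (0.18). HSPA5, a chaperone of the endoplasmic reticulum, had log2 ratios of 0.15 in LNCaP and 1.16 in PC3 after ATO, and an untreated difference of 1.41. RDH10, a retinol dehydrogenase, had 0.11, 1.24 and 1.42, and PKIB, an inhibitor of protein kinase A, had 0.26, 0.81 and 1.69. Among the 3 genes nearest to RAP1B were NRIP1, a nuclear receptor corepressor (distance 0.06), and NRBP2 (0.07). These are likenesses over 4 arrays only.

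The proteins that load, unload and read these GTPases were taken from 7 lists of 69 genes. In LNCaP 48 had a value, of which 4 were at least 1.5-fold higher after ATO and 1 lower, with a median log2 ratio of 0.06. Over all genes 4.75% were past 1.5-fold in that line. In PC3 51 had a value, with 4 higher, 5 lower and a median of 0.07, which is near the 18.5% of all genes past 1.5-fold there. By limma none passed for ATO in any list (0).

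Among exchange factors, which switch GTPases on, SOS1 went from 40.7 to 74.1 units in LNCaP (log2 0.76), but its dimmer probe, not well above background after ATO, went from 52.0 to 39.6. SOS2 went from 180.0 to 321 units in PC3 (0.90). RAPGEF2, which acts on Rap, went from 694 to 1169 units in LNCaP (0.65). RAPGEF6 went from 159.8 to 95.4 in PC3 (-0.70), with a bright background in the control. RALGPS1, an exchange factor for Ral, went from 104 to 155 in PC3 (0.62). Its dimmer probe, not well above background in the PC3 control, went from 50.8 to 55.5 (0.18).

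Among GTPase-activating proteins, which switch GTPases off, RASAL2 went from 59.4 to 113 units in LNCaP (0.83), with a bright background after ATO. Its dimmer probe, not well above background after ATO, went from 32.7 to 13.9. RASA4 went from 121 to 71.8 (-0.86) in LNCaP. Its other probes went from 38.9 to 40.2 and from 8.59 to 64.1 there, neither well above background after ATO. In PC3 SIPA1L3, which acts on Rap, went from 235 to 127 (-0.84). RALGAPA1, a subunit of the Ral GAP complex, went from 826 to 473 (-0.75) with a bright background in the control. The Rheb GAP complex had 0 of 3 genes past 1.5-fold in each line. Its subunit TSC2, named after its value was seen, gave 7043 and 8542 units in LNCaP and 772 and 860.2 in PC3, a difference of -3.43 between the untreated lines. The dimmer TSC2 probe was well above background in LNCaP control alone.

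Of 17 effectors, 15 had a value in PC3 and 2 were lower, beside 18.5% of all genes past 1.5-fold in either direction. The Rap effector RADIL went from 441 to 186 units (-1.20). RASIP1 was at least 2.32-fold lower, a bound set because the ATO array was not well above background, with a bright background in the control. In LNCaP 10 had a value and 0 reached 1.5-fold. Of the 11 prenyl transferases, processing enzymes and chaperones, none (0 of 10 with a value) reached 1.5-fold in LNCaP. In PC3 ICMT, which methylates the prenylated cysteine, was at least 1.83-fold higher by a bound, with a bright background after ATO. The other bounds were RAPGEF3 in LNCaP (2.67-fold higher, with a bright background after ATO) and RAP1GAP in PC3 (2.07-fold higher). For both, the control array was not well above background but lay above the floor, so the value is the plain ratio. All 4 genes with bounds were named after their values were seen.

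Other GTPases gave a frame for the 9 members. Of 25 other Ras family genes, 17 had a value in PC3, 2 were higher and 2 lower (18.5% of all genes were past 1.5-fold in either direction), and the median log2 ratio was 0.09. MRAS, a close relative of RRAS, went from 95.7 to 195 units (1.07) in PC3 and from 88.1 to 77.7 (-0.28) in LNCaP. RASD1 went from 105 to 186 (0.88) in PC3 and from 238 to 315 (0.30) in LNCaP. The lower ones were bounds, DIRAS3 (at least 1.86-fold) and RASL10B (at least 2.56-fold, with a bright background in the control), named after their values were seen. Between the untreated lines 17 of the 25 had a value, bounds included. Of these, 9 were at least 2-fold higher in PC3 and 5 at least 2-fold lower, with a median log2 difference of 1.28. Over all genes 39.6% differed at least 2-fold. Higher mRNA in PC3 was thus not particular to the 9 members. Whether the 25 genes and the 9 members differ as groups was not tested.

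**Figure D5:**
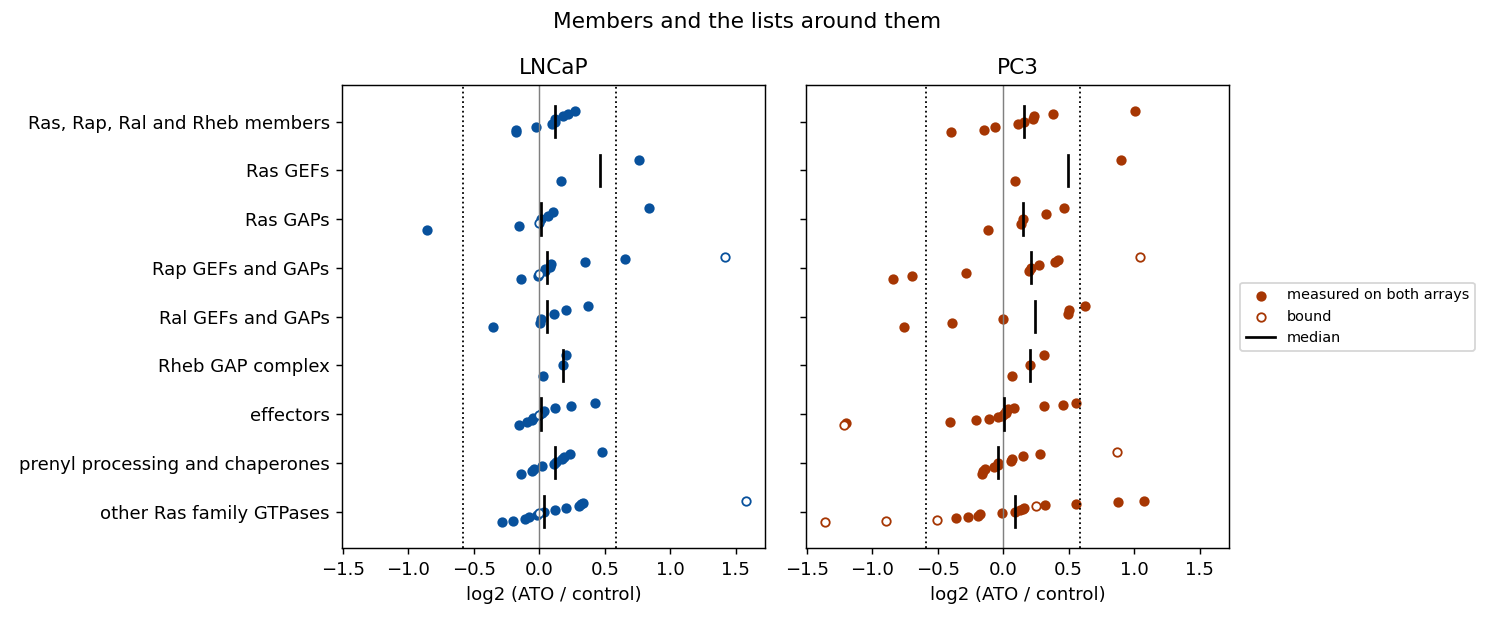
Log2 ratio of ATO over control for the 9 members (brightest probes) and for each gene of the lists with a value, in LNCaP (left) and PC3 (right). Filled points were measured on both arrays, open points are bounds, black bars are medians and dotted lines mark 1.5-fold. RRAS at 1.005 in PC3 is the 1 member past the line, and MRAS at 1.07 is the highest of the other Ras family genes there.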

How the data were processed

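The authors scanned 1-colour Agilent Human GE 4x44K arrays and extracted them with Agilent Feature Extraction 9.5.3.1. The deposited scanner files give the processed intensity of each spot, background-subtracted and corrected for a trend over the slide per the file headers, with coordinates on hg18. A deposited table by the authors gives a ratio per probe (intensity over the array's 75th percentile), used as an alternative only. Outlier spots were left out, each probe's log2 intensities were averaged over its remaining spots, and the 75th percentile was subtracted. The brightest probe with unflagged spots on all arrays represented each gene in counts. Genes counted at 1.5-fold (ATO) or 2-fold (untreated lines) needed 1 array well above background. A dim array below its floor, the lowest value well above background, was given that floor. A dim array above the floor kept its own value. The difference is called a bound in either case, and "at least" is used only where the floor was given. A local background was bright if over 3 robust SD above the array's median. With 1 array per group, p-values came only from limma 3.58.1 (R 4.3.3, lmFit and eBayes, two-sided, Benjamini-Hochberg over all genes tested). The fit was also run on simulated data with the same spread for every gene and no effect of ATO. That run cannot check the p-values given here, since the real spread is of another kind. In both fits line and treatment were included, so these p-values rest on how far the difference after ATO differed between the lines. That spread is moderated over genes by eBayes. Precision is limited by the 4 arrays.

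All 9 members were reported with every probe, at most 4 genes per list and line were named among those measured on both arrays and changed at least 1.5-fold, and the 3 genes nearest to RRAS and to RAP1B were sought. Of these results, 1 such neighbour, 1 marker and 1 list are not reported here. The members and lists were chosen with earlier results of these data known. All 119 genes of the lists and markers were on the array, and 118 had a usable probe (RASA2 had none). No protein sequence table was used here, so the grouping by lipid rests on general knowledge. Alternatives were the 50th percentile, quantile and cyclic loess normalization, normexp (offset 50), the authors' ratios, outlier spots kept, the median over probes, no filter on dim probes, bright local backgrounds left out, higher folds (2 and 4) and, in limma, an intensity trend. Tables and figures used Python 3.11.15.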

Additional observations from a re-analysis of the deposited data

Results flagged for a closer look

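RASL10B, a small GTPase outside the 9 members, moved past 1.5-fold in opposite directions in the lines, and its log2 difference after ATO in PC3 minus that in LNCaP was -2.94. It gave 34.9 units without and 112 with ATO in LNCaP, and 142.5 without and 39.1 with ATO in PC3, from 1 spot at row 525. Both directions are bounds. It was 2.99-fold higher in LNCaP, the plain ratio to a control array that was not well above background, and at least 2.56-fold lower in PC3. The spot had a bright local background on the LNCaP ATO and PC3 control arrays, the 2 arrays where it was bright. The difference between the lines was not tested, with 1 array per group.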

How the results depend on the processing

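No member reached 1.5-fold in LNCaP under any alternative run (0 throughout). In PC3 RRAS reached it under each, and the count was 2 with the dimmer probes of RHEB and NRAS, an alternative chosen after seeing the data. Between the untreated lines the count was 0 at 4-fold, 5 with the 50th percentile (3 higher in PC3, without RALA, and HRAS and NRAS lower), and 6 with the median over probes or with the dimmer probes (RHEB higher and NRAS lower beside the 4). In limma between the lines it was 3 with bright local backgrounds left out, when 5 members could be tested. It was between 4 and 6 otherwise. The 50th percentile moved the median of all genes by -0.44 between the untreated lines and by 0.19 after ATO in PC3, cyclic loess by 0.18 between the untreated lines, and no filter on dim probes by 0.57 there. With the 50th percentile, limma's line difference changed sign for RAP1A (-0.31) and RHEB (-0.0601), and with cyclic loess for RRAS2 (0.00508). The treatment difference changed sign for NRAS with normexp (0.0797) and the median over probes (0.11), and for RHEB with the latter (-0.11). None of these passed before or after. The cause was not tested. Over all genes, the counts past the fold after ATO were 653 and 2552, and 354 with normexp in LNCaP, 11684 and 4955 without a filter, 366 and 1592 without bright backgrounds, and 329 and 841 at 2-fold. Between the untreated lines 6036 fell to 2446 at 4-fold. In limma 5 genes passed for ATO with the 50th percentile, and for the line 4518 passed without a filter against 7985. The share of higher calls in PC3 was 44.4%, and 70.3% with the 50th percentile; between the untreated lines it was 52.0% and 32.3%. No paired analysis was possible because each group holds 1 array within a line. Across lines, the limma fit for ATO with cell line as a block is the paired one. No array could be left out, as no residual degrees of freedom would remain.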
